A study of Mus musculus with 6 samples.

Results

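Transcripts of Ash1l and 7 other genes listed as histone H3 lysine 36 (H3K36) methyltransferases were followed in the dorsal striatum of mice. For Setmar, Smyd2 and Setd3 among them, the main substrate in cells may not be H3K36. The genes were taken by name from the deposited gene table: Ash1l, Nsd1, Nsd2, Nsd3, Setd2, Setmar, Smyd2 and Setd3, which are 8 of its 34745 genes (Nsd2 and Nsd3 are listed there under their older symbols Whsc1 and Whsc1l1). All 8 passed the filter on low counts, which left 15267 genes to test. One group was heterozygous for Ash1l (Ash1l het, 3 libraries) and the other was wild type (WT, 3 libraries). Both were of strain C57BL/6 and aged 1 year, and no treatment is described. The labels name neither the Ash1l mutation nor its position in the gene. They also do not say that each library is a separate animal, so the spread between libraries, on which the p-values rest, may be technical.

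Methylation of H3K36 is laid down over gene bodies and is read by proteins that guide transcription, splicing and DNA methylation. ASH1L and the NSD proteins place the monomethyl and dimethyl forms, and SETD2, which travels with elongating RNA polymerase II, places the trimethyl form. The mark hinders the Polycomb repressive complex PRC2, which methylates lysine 27 of the same histone, and ASH1L belongs to the Trithorax group of genes that counteract Polycomb silencing. Because several enzymes share one substrate, the design allows the question of whether the others differ in level where 1 copy of Ash1l is altered.

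Totals per library ran from 12080663 to 18798694 counts, and intervals cover counting and library spread but no unseen batch. The spiny projection neuron markers were all present, with a summed level of 7356 to 9074 CPM (counts per 1000000 counts, scaled by the TMM method of edgeR), and the 4 choroid plexus markers summed to 10.1 to 25.8 CPM, the highest in WT replicate 1. The labels' protocol describes male mice, yet Xist, the transcript of the inactive X chromosome, had 29780 to 43489 counts in every library. Of the Y-linked genes, Kdm5d had at most 1 count and Ddx3y, Uty and Eif2s3y had 0 in all libraries. Ash1l het replicates 1 and 2 departed from the other 4 libraries in the balance of long and short transcripts, in opposite directions, and values for Ash1l are therefore also given without each of them.

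Ash1l, the targeted gene, was read first. The WT libraries stood at 308, 295 and 293 CPM, and the Ash1l het libraries at 281, 198 and 253 CPM. Every Ash1l het library was below every WT library, but unevenly: they reached 94.2%, 66.2% and 84.7% of the WT mean, while the highest WT library reached 103.1%. With 3033 to 5053 counts behind each value, counting error alone is 1.41% to 1.82% of a value, so the coefficient of variation of 17.5% among Ash1l het libraries is far above it, and the 2.73% among WT libraries is closer to it. The log2 fold change was -0.29 (SE 0.135, unadjusted p = 0.0577, adjusted p = 0.858 by the quasi-likelihood test of edgeR), and the gene ranked 1020th by p among the 15267 tested. By exact permutation of the 6 libraries the two-sided p was 0.1, and no smaller value can be reached with 3 per group. Of all genes tested, 5.53% had every Ash1l het library below every WT library. Leaving out Ash1l het replicate 2 brought the log2 fold change to -0.16 (SE 0.087, unadjusted p = 0.101 by edgeR), and leaving out replicate 1 brought it to -0.41 (SE 0.13, unadjusted p = 0.0117, adjusted p = 0.857 by edgeR).

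The gene lies on GRCm38 chromosome 3, 88950622 to 89079375, plus strand (ENSMUSG00000028053), and its longest coding transcript has 28 exons and 11644 bases. Its first 560 bases overlap the start of Dap3, a mitochondrial ribosomal protein gene on the opposite strand, which had 414 to 598 counts. Mean Dap3 levels were 32.1 CPM (WT) and 31.5 CPM (Ash1l het), which is -0.03 (SE 0.13) as a log2 fold change. The library kit was stranded, but the labels do not say whether reads were counted by strand. How reads in the shared stretch were assigned to the 2 genes therefore cannot be told from the deposited counts.

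**Figure D1:**
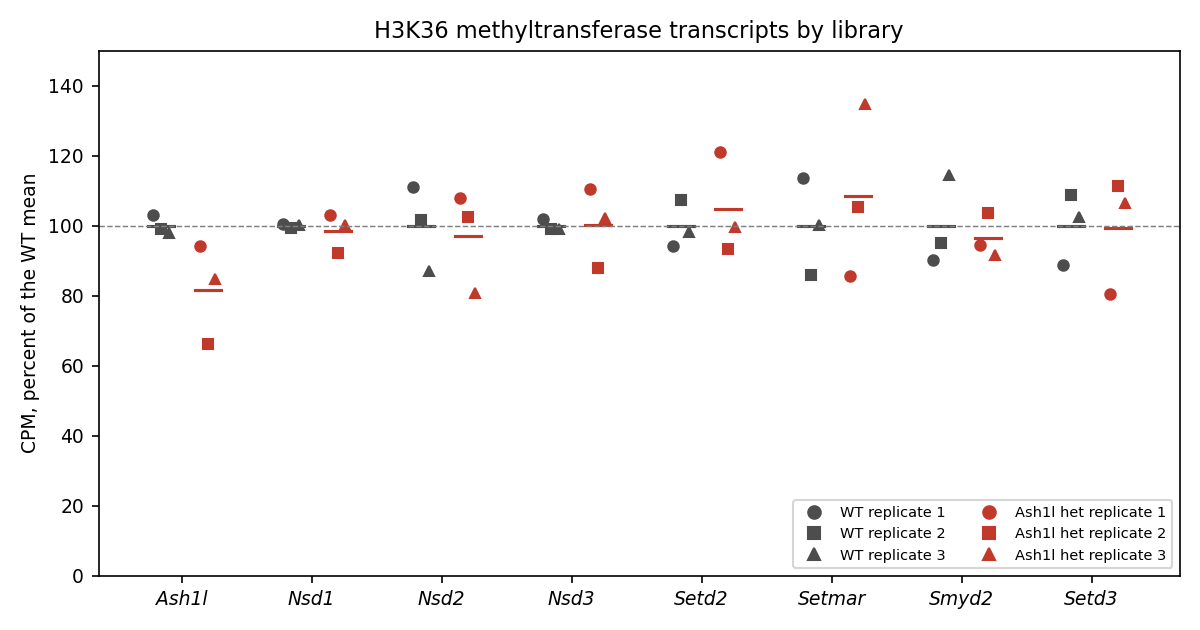
Level of each of the 8 genes in each library as a percent of the WT mean (CPM; grey WT, red Ash1l het, short lines group means). Only Ash1l has groups that do not overlap, with Ash1l het libraries between 66.2% and 94.2%.

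None of the 8 genes passed at an adjusted p under 0.05 by the quasi-likelihood test of edgeR (2 of 15267 genes, 0.0131%, did). At an unadjusted p under 0.05 the count was also 0 of 8, against 5.78% of all genes. For Ash1l the unadjusted p was under that mark by limma-voom (0.0479, adjusted p = 0.844), by edgeR without the filter (0.0389, adjusted p = 0.874) and by edgeR with a replicate block (0.0477, adjusted p = 0.90). At the adjusted threshold DESeq2 (0.205% of all genes called) and limma-voom (0.0197%) called 0 of the 8. Without Ash1l, the log2 fold changes of the other 7 ran from -0.05 to 0.13, with 3 above and 4 below 0 and a median of -0.009. The median over all genes tested was 0.006. In none of the 7 were the groups apart, against 11.7% of all genes tested whose groups did not overlap in either direction.

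The NSD genes encode close relatives of one another with a SET domain, the fold that transfers the methyl group. Nsd1, on chromosome 13 (55209782 to 55318325), encodes a dimethylase and its human counterpart is mutated in Sotos overgrowth syndrome. It stood at 203, 200 and 202 CPM in WT libraries and at 208, 186 and 202 CPM in those of Ash1l het. The WT libraries were nearly equal, and the Ash1l het libraries lay on both sides of them. The fit placed it at 98.5% of WT (95% interval 84.9% to 114.4%, adjusted p = 0.982 by edgeR). Of the 8 genes Nsd1 therefore had one of the narrowest intervals, and an increase above 14.4% of its WT level lies outside it.

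Nsd2, on chromosome 5 (33820725 to 33897975), is the dimethylase lost in Wolf-Hirschhorn syndrome. WT libraries held 68.5, 62.6 and 53.7 CPM and Ash1l het libraries 66.4, 63.1 and 49.8 CPM. Both groups covered nearly the same range, and the fit gave 97.0% of WT (95% interval 78.1% to 120.6%). Nsd3, on chromosome 8 (25601601 to 25719667), also makes a short form without the SET domain, which gene counts do not set apart. It stood at 82.2, 79.9 and 80.0 CPM in WT libraries and at 89.2, 70.9 and 82.5 CPM in those of Ash1l het. The WT values again lay inside the Ash1l het range, and the fit gave 100.2% of WT (95% interval 84.6% to 118.8%).

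Setd2, the trimethylase, lies on chromosome 9 (110532597 to 110618633). It stood at 100.5, 114 and 105 CPM in WT libraries and at 129, 99.6 and 106 CPM in those of Ash1l het. Ash1l het replicate 1 was the highest of the 6 libraries and replicate 2 the lowest. The fit placed it at 105% of WT (95% interval 86.6% to 126.6%, adjusted p = 0.950 by edgeR).

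The remaining 3 genes encode enzymes whose main substrate in cells may not be H3K36. Setd3, on chromosome 12 (108106431 to 108179314), is known chiefly as the enzyme that methylates a histidine of actin. It stood at 139, 170 and 160 CPM in WT libraries and at 126, 174 and 166 CPM in those of Ash1l het. Replicate 1 of each group was the lowest, and the fit gave 99.4% of WT (95% interval 79.6% to 124.1%). Smyd2, on chromosome 1 (189880492 to 189922363), also methylates p53 and other proteins. It held 98 to 178 counts per library, and the fit gave 96.4% of WT (95% interval 74.7% to 124.5%). Setmar, on chromosome 6 (108065045 to 108077122), lacks in mice the transposase part that it has in primates. It held 77 to 150 counts per library, the fewest of the 8, and its interval was the widest, 77.9% to 153.3% of WT around a fitted 109%. Counting error alone was 8.2% to 11.4% of a Setmar value. The intervals of Setmar, Smyd2 and Setd3 include a log2 difference of the size seen for Ash1l in either direction. On the log2 scale that of Setd2 (-0.207 to 0.340) includes it as an increase. That of Nsd2 (-0.357 to 0.270) includes it as a decrease.

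**Figure D2:**
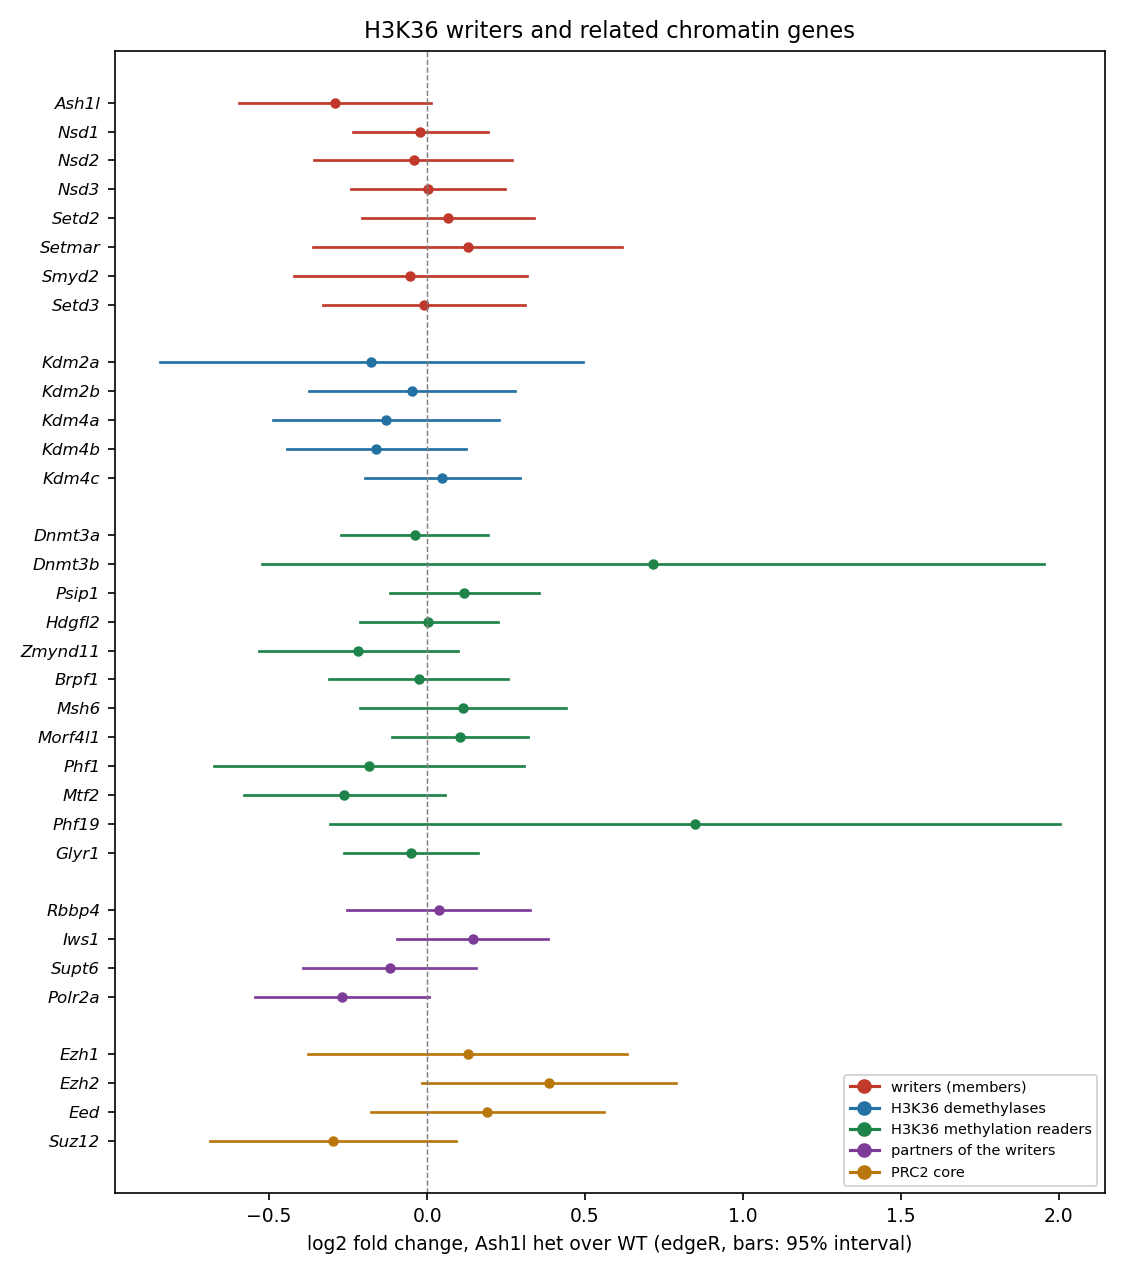
Log2 fold change of Ash1l het over WT with its 95% interval (edgeR) for the 8 genes and for 25 genes of related function, grouped by role. All intervals include 0; that of Ash1l reaches from -0.60 to 0.01.

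Levels between genes were compared per length, and their order depended on which length was used. The FPKM values (fragments per kilobase and per 1000000 counts) fit 1 fixed length per gene, which for Ash1l is 17700 bases and for Nsd2 31974 bases. The longest coding transcripts in GENCODE M21 have 11644 and 7786 bases. All annotated exons together cover 14838 and 16803 bases, less than those fixed lengths. For Nsd1 the fixed length equals its longest coding transcript, 12784 bases. The fixed lengths are therefore not alike between genes, which limits the order on the FPKM scale. On the deposited FPKM scale, Ash1l came first in WT (16.6 ± 0.686, SD, n = 3), followed by Setd3 (15.7 ± 1.36) and Nsd1 (15.6 ± 0.411), and the ranges of these neighbours overlapped. Setd2 stood at 5.20 ± 0.239, below all 3 of Nsd1's libraries, and Nsd3 at 3.64 ± 0.122, below all of Setd2's. Setmar (3.11 ± 0.487), Smyd2 (2.34 ± 0.317) and Nsd2 (1.90 ± 0.236) came last, each overlapping the gene before it. In Ash1l het the FPKM of Ash1l was 13.9 ± 2.08, and its mean was below those of Setd3 (16.1 ± 2.98) and Nsd1 (15.7 ± 0.602), with overlapping ranges.

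With CPM per kilobase of the longest coding transcript, a scale added after the data were seen, Setd3 came first in WT (56.8 ± 5.81, SD, n = 3) and Ash1l second (25.7 ± 0.700). Nsd1 (15.8 ± 0.0937), Setd2 (12.8 ± 0.850) and Nsd3 (7.98 ± 0.131) followed without overlap. Nsd2 moved from the last place to the sixth (7.91 ± 0.957), overlapping Nsd3. The Nsd2 transcript used has 9 exons, against 23 for Nsd1 and 24 for Nsd3. Whether it encodes the SET domain was not checked. On both scales Ash1l was above Nsd1, Setd2, Nsd2 and Nsd3 in WT means.

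**Figure D3:**
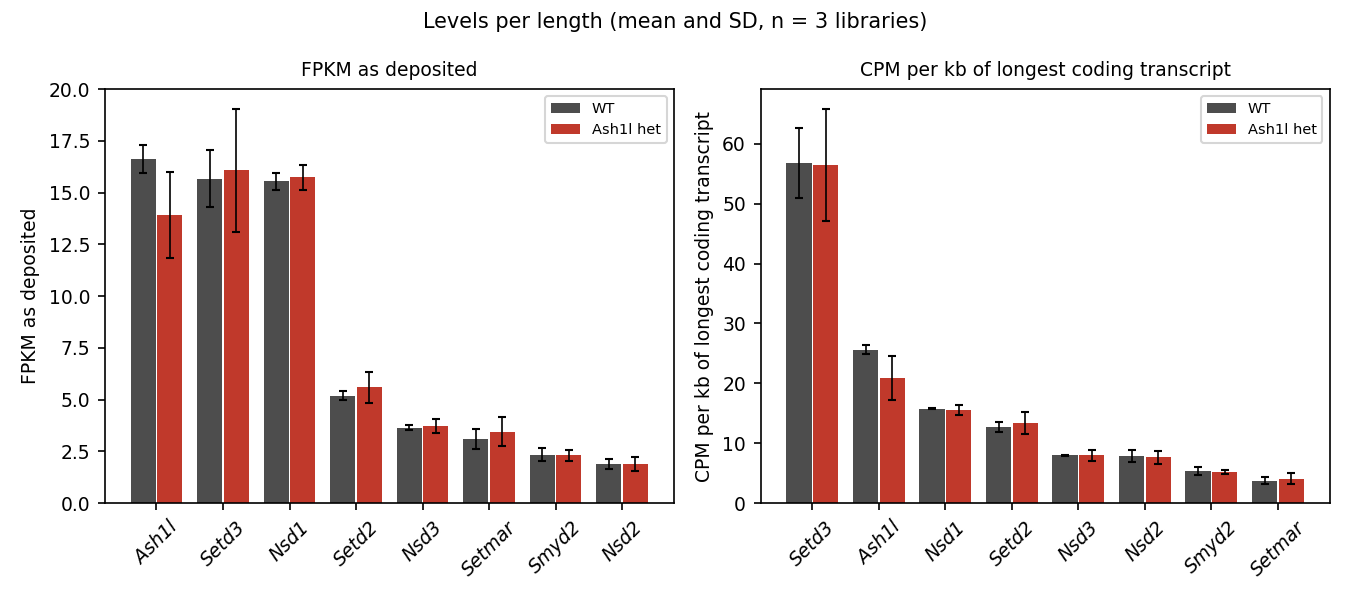
Mean level per length of the 8 genes in WT (grey) and Ash1l het (red), error bars SD over 3 libraries, genes ordered by the WT mean. Ash1l leads on the deposited FPKM scale (16.6 in WT) and is second to Setd3 on the scale of the longest coding transcript (25.7 against 56.8).

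Ash1l made up 27.2%, 25.3% and 25.4% of the summed FPKM of the 8 genes in WT and 25.4%, 18.8% and 22.3% in Ash1l het. The share depends on the lengths used. Per longest coding transcript it was 20.2%, 18.0% and 18.4% in WT and 19.0%, 12.9% and 16.05% in Ash1l het. On both scales Ash1l het replicate 1 had a share inside the WT range, and the shares of the other 2 libraries lay below it. The 7 other genes summed to 46.6, 47.4 and 48.3 FPKM in WT and to 47.0, 51.3 and 48.2 FPKM in Ash1l het. These sums include Setd3, whose main substrate in cells may not be H3K36. It stood at 14.1, 16.7 and 16.2 FPKM in WT and at 12.9, 18.9 and 16.4 FPKM in Ash1l het. The mean of the summed 7 genes was 1.42 FPKM higher in Ash1l het, beside a mean Ash1l level 2.72 FPKM lower. With all libraries the sum was 103% of WT. It was 104.9% without Ash1l het replicate 1, 100.4% without replicate 2 and 103.7% without replicate 3. Leaving out single WT libraries gave 102.1% to 103.9%. The groups of that sum overlapped, and on the TMM scale with the same lengths the difference was 0.067. The NSD genes together stood at 21.1 ± 0.626 FPKM in WT and 21.4 ± 1.13 FPKM in Ash1l het (SD, n = 3 each). No test was made of these sums.

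Ratios within a library do not depend on scaling. The log2 ratio of Ash1l to Nsd3 counts was 1.91, 1.89 and 1.87 in WT and 1.66, 1.48 and 1.62 in Ash1l het. The WT libraries agreed to an SD of 0.017, and each Ash1l het library lay below them, so that the mean ratio was 81.0% of WT. The log2 ratio of Ash1l to Nsd1 was 0.60, 0.56 and 0.53 in WT and 0.44, 0.086 and 0.32 in Ash1l het, a mean ratio of 82.1% of WT. For Setd2 the log2 ratios were 1.62, 1.37 and 1.48 in WT and 1.13, 0.99 and 1.25 in Ash1l het, a mean ratio of 77.5% of WT. These 3 ratios had groups that did not overlap. By two-sided exact permutation each had p = 0.1, again the smallest value possible, and 0.233 after Benjamini-Hochberg adjustment over the 7 ratios. All 7 ratios share the Ash1l count, and the CPM groups of Ash1l did not overlap either. The 3 ratios are therefore not separate findings. The share of such ratios over all genes was not computed. Against Nsd2, Setmar, Smyd2 and Setd3 the groups overlapped, with mean ratios from 75.2% to 83.5% of WT (exact permutation p from 0.3 to 0.5 unadjusted).

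The libraries differed by transcript length, and the values of the 8 genes were set beside that difference. This was examined after the data were seen. Among 319 protein-coding genes with a mean of at least 10 CPM and a longest coding transcript over 10000 bases, the median log2 ratio to the WT mean was 0.15 in Ash1l het replicate 1, -0.16 in replicate 2 and -0.001 in replicate 3. For 1562 genes of up to 2000 bases it was -0.12, 0.10 and 0.007. WT libraries stayed between -0.036 and 0.024 in these classes, a range narrowed by their being part of the mean. The log2 ratio of Nsd3 to its WT mean followed its class: 0.14, -0.19 and 0.03 in Ash1l het before and -0.003, -0.024 and 0.033 after the class median was subtracted. Nsd1, of the same class, hardly did: its SD among Ash1l het libraries was 0.083 before and 0.076 after. For Nsd2, of the class over 6000 bases, the SD was 0.22 before and 0.23 after. For Setd2, of the class over 8000 bases, the SD was 0.193 before and 0.093 after. For Setd3, Setmar and Smyd2, of shorter classes, it was 0.252, 0.305 and 0.087 before and 0.247, 0.264 and 0.084 after. For Ash1l the 3 values were -0.09, -0.59 and -0.24 before, and -0.23, -0.43 and -0.24 after, while WT libraries lay between -0.017 and 0.022 after. The SD of Ash1l among Ash1l het libraries went from 0.26 to 0.11, and the mean difference from WT was -0.30. Whether transcript length accounts for the spread of any of the 8 genes was not tested. With the length trend of each library entered as an offset in edgeR, Ash1l stood at 80.8% of WT (95% interval 69.7% to 93.8%; log2 fold change -0.31, SE 0.095, unadjusted p = 0.010, adjusted p = 0.710). That offset called 0 of the 8 genes.

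**Figure D4:**
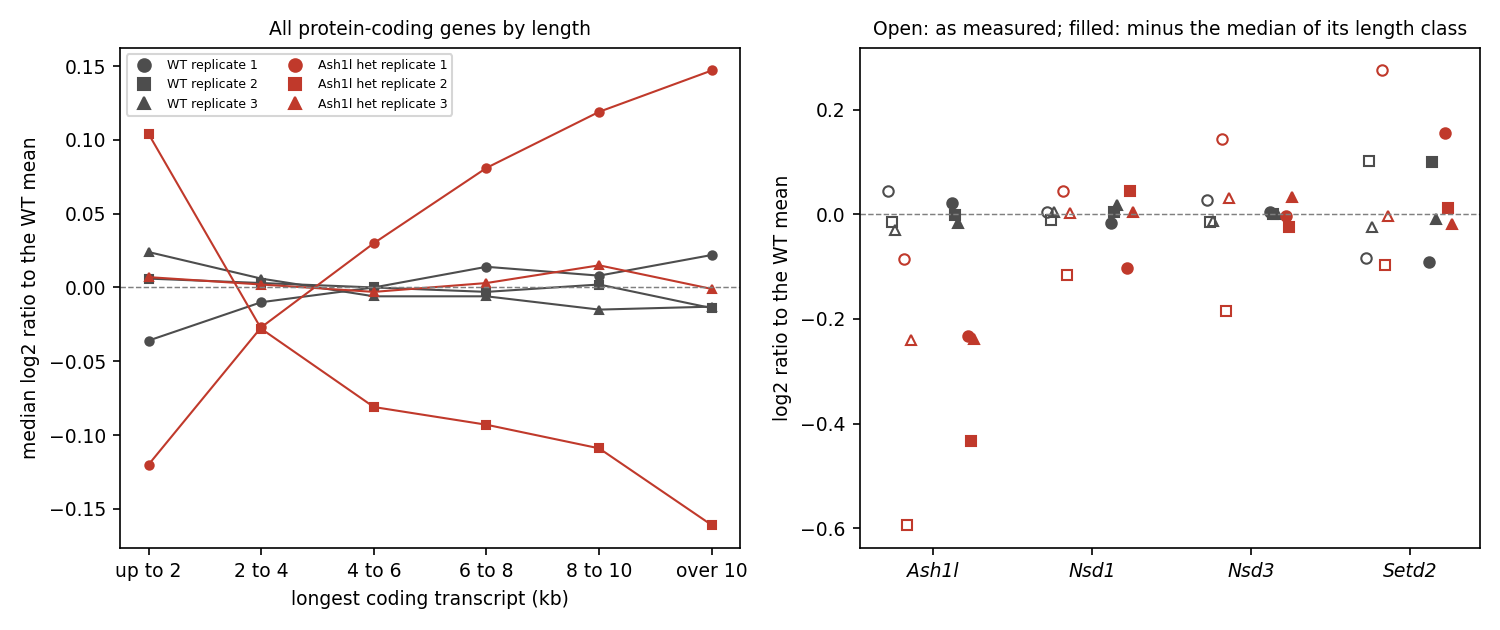
Left, median log2 ratio to the WT mean for protein-coding genes by length of the longest coding transcript, 1 line per library. Right, the same ratio for Ash1l, Nsd1, Nsd3 and Setd2 before (open) and after (filled) subtraction of the median of the gene's length class; after it, Ash1l het libraries lie at -0.23, -0.43 and -0.24 for Ash1l.

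Cell type markers also varied between the libraries. Ash1l het replicate 2, the lowest for Ash1l, had the highest summed markers of astrocytes (1497 CPM, against 725.5 to 1244 CPM in the other Ash1l het libraries and 759 to 907 CPM in WT) and of oligodendrocytes (7632 CPM, against 5072 to 6424 CPM in WT). It also had the highest microglia sum (426 CPM, against 316 to 353 CPM in WT) and the lowest sum of cortical neuron markers (13.6 CPM, against 31.6 to 60.4 CPM in WT). The single glial markers were mixed: 3 of 5 for astrocytes and 2 of 5 for microglia were higher in Ash1l het means. Cortical markers were not low in the group as a whole: Ash1l het replicate 1 had 85.9 CPM, above every WT library, and all 5 were higher in Ash1l het means. Oligodendrocyte markers stood at 6778 CPM in Ash1l het replicate 1 and 5271 CPM in replicate 3, also with 5 of 5 higher in means. Blood markers summed to 56.1 to 122.9 CPM in Ash1l het and 23.0 to 35.4 CPM in WT, with all 5 higher in Ash1l het means, and endothelial markers to 186 to 245 CPM and 145 to 174 CPM, also with 5 of 5 higher. Spiny projection neuron markers overlapped, with 2 of 10 higher in Ash1l het means. The part of these markers in the Ash1l values was not tested, and in bulk tissue fewer cells of a type and less RNA per cell cannot be told apart.

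Genes that remove, read or oppose the mark were counted from lists of 25 genes, all of which were tested. By the quasi-likelihood test of edgeR, 0 of 25 passed at an adjusted p under 0.05 and 0 at an unadjusted p under 0.05 (0.0131% and 5.78% of all genes tested did), so the counts do not set the lists apart from other genes. Of the 25, 12 were above and 13 below 0, with a median log2 fold change of -0.03. DESeq2 and limma-voom called 0 of the 25 as well.

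Of 5 H3K36 demethylase genes, 4 were below 0, with a median of -0.13. Kdm4b and Kdm4a, JmjC demethylases, had values of -0.16 (SE 0.13) and -0.13 (SE 0.16) on the log2 scale. Kdm2a, which removes the dimethyl form, stood at 120, 127 and 127 CPM in WT libraries and at 138, 61.8 and 130 CPM in those of Ash1l het. Only Ash1l het replicate 2 was low, and the other 2 libraries were above all WT libraries.

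Of 12 genes for readers of the mark, 6 were above and 6 below 0. Mtf2, a PRC2 accessory protein with a Tudor domain, had a log2 fold change of -0.26 (SE 0.14). Phf19, another such protein, had 0.85 (SE 0.51) on 4 to 20 counts per library, and Zmynd11, a reader of the trimethyl form on the H3.3 variant, had -0.22 (SE 0.14). Among the 4 partners of the writers, Polr2a, the largest subunit of RNA polymerase II, had -0.27 (SE 0.12, unadjusted p = 0.0546 and adjusted p = 0.858 by edgeR). Its libraries stood at 91.2, 87.3 and 96.0 CPM in WT libraries and 73.7, 65.7 and 88.1 CPM in those of Ash1l het, so that the groups overlapped. The elongation factors Iws1 and Supt6 had 0.14 (SE 0.11) and -0.12 (SE 0.12).

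The PRC2 core held the only one of the 25 genes whose groups did not overlap. Ezh2, a catalytic subunit, stood at 6.29, 7.59 and 5.62 CPM in WT libraries and at 8.02, 8.27 and 9.18 CPM in those of Ash1l het. Every Ash1l het library was above every WT library, as for 6.18% of all genes tested, on 76 to 167 counts. Its log2 fold change was 0.39 (SE 0.18, unadjusted p = 0.0575, adjusted p = 0.858 by edgeR). Suz12 and Eed, subunits without catalytic activity, had -0.30 (SE 0.17) and 0.19 (SE 0.16).

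The genes most like Ash1l over the 6 libraries, by Pearson r of log2 CPM among 9551 other genes with a mean of at least 10 CPM, were Pitpna (a phosphatidylinositol transfer protein, r = 0.993), Kit (a receptor tyrosine kinase, r = 0.990), Zfp462 (a zinc finger protein, r = 0.989), Srpk1 (a kinase of splicing factors, r = 0.988) and Cherp (r = 0.988). Pitpna stood at 155, 149 and 151 CPM in WT libraries and at 148, 120 and 135 CPM in those of Ash1l het. Like Ash1l it was lowest in Ash1l het replicate 2. With 6 libraries such values are a description: 244 genes had an r over 0.9, and all points share library depth, length trend and tissue makeup. Among the other methyltransferase genes r was 0.84 for Nsd1, 0.71 for Nsd3, 0.34 for Setd2, 0.13 for Nsd2, -0.21 for Smyd2, -0.27 for Setmar and -0.50 for Setd3. In the same order, their longest coding transcripts have 12784, 10105, 8350, 7786, 1680, 1612 and 2755 bases. The part of length in these r values was not tested.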

How the data were processed

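Striatal RNA was sequenced from libraries of a stranded mRNA kit (labels' protocols). Per the submitters' processing notes, HISAT2, StringTie, edgeR, CASAVA and FastQC were used with build GRCm38; for each tool, role, version and settings are not stated. The authors deposited raw read counts per gene and FPKM values for the same genes, per the file headers; the 6 per-sample files held the same counts. Of the 34745 gene identifiers, 34344 were in GENCODE M21 (GRCm38), which gave positions and transcript lengths.

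Tests used the counts and edgeR 4.0.16 in R 4.3.3 (glmQLFit and glmQLFTest, the quasi-likelihood test; robust, TMM scaling, default filter with a minimum count of 10, genotype as the only term), with Benjamini-Hochberg adjustment over all genes tested and a threshold of 0.05. Log2 fold changes are Ash1l het over WT. Alternatives were DESeq2 1.42.0, limma-voom (limma 3.58.1), RLE and upper-quartile scaling, no filter, limma on log2(FPKM + 0.1) and log2(FPKM + 1), the replicate number as a block and each library left out. The length offset and the scale per longest coding transcript were added after the data were seen. The fits were tested on simulated data with larger differences than that of Ash1l and no length trend. That check does not cover a difference of the Ash1l size. The 8 genes and the lists were chosen with earlier results of these data known. Named genes are all 8, up to 3 per list by smallest p and the 5 most like Ash1l; Dap3, and the library values shown for Kdm2a, were chosen after their values were seen.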

Additional observations from a re-analysis of the deposited data

How the results depend on the processing

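Ash1l kept its direction and did not pass under the alternatives run: its log2 fold change lay between -0.31 and -0.25 with all 6 libraries and between -0.41 and -0.16 with single libraries left out, and its smallest adjusted p was 0.506 (without Ash1l het replicate 3). The 8 genes had 0 calls under each of these settings. Over all genes, DESeq2 called 35 against 2, and leaving out single libraries gave 1 to 13. Values close to 0 changed sign: Nsd3 was at -0.001 (RLE scaling), -0.002 (DESeq2), -0.003 (limma-voom), -0.001 (no filter) and -0.003 (length offset); Nsd1 was at 0.017, 0.016 and 0.017 on log2(FPKM + 0.1), log2(FPKM + 1) and log2(FPKM + 0.1) with no minimum; Setd3 was at 0.022, 0.021 and 0.022 there, 0.007 with upper-quartile scaling and 0.011 with the length offset. With single libraries left out the log2 fold change ran from -0.056 to 0.023 for Nsd1, -0.135 to 0.071 for Nsd2, -0.073 to 0.088 for Nsd3, -0.051 to 0.141 for Setd2, -0.063 to 0.271 for Setmar, -0.120 to 0.058 for Smyd2 and -0.099 to 0.121 for Setd3. The cause was not tested. Whether the replicate numbers pair samples is not known. Deviations from the group mean correlated at 0.056, -0.075 and 0.011 for same-numbered libraries. Between libraries of unlike number they correlated at -0.13 to 0.126, and such values cannot settle how samples were matched. With the replicate block Ash1l was at -0.31 (adjusted p = 0.90), Nsd3 at -0.003 and 3 genes were called. The summed level of the 7 other genes in Ash1l het was 103% of WT as FPKM, 100.1% on the TMM scale and 100% per longest coding transcript. On that last scale Setd3 alone stood at 56.8 of the summed 110.3 in WT means.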
